A study of Mus musculus with 9 samples.

Results

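The scavenger receptor genes Msr1, Marco, Colec12, Cd36, Scarb1 and Cd163, together with the related Cd5l and Lyve1, were followed across 3 mouse cell populations. These 8 of the 19938 genes tested were chosen by family membership through the gene symbol of their probe set, of which each had 1. Affymetrix arrays were run on sorted cells, 3 labelled as biological replicates for each type. T cell zone macrophages (TZM) were sorted from lymph nodes as GFP-high, MertK+, CD169-, CD11b+ cells. Microglia, the resident macrophages of the brain, were sorted as GFP-high, CD11b+, CD45+ cells. CD8a+ dendritic cells (DC), which present antigen to T cells, were sorted as CD8a+ cells that were also CD64-, CD11c-high and MHCII-high. All 3 came from CX3CR1 gfp+/- mice, in which a green fluorescent protein reporter replaces 1 copy of the fractalkine receptor gene, so no group had both copies. The labels place the DC in the lymph node in the sample fields and in the spleen in the sorting protocol. They give neither the age and sex of the mice nor the number pooled per array. None of the 8 genes encodes a sort marker.

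Scavenger receptors bind modified lipoproteins, microbial surfaces, dying cells and free haemoglobin, and deliver them to lysosomes. Macrophages use them to take up debris without the antibodies or complement that other uptake routes need. Class A receptors (Msr1, Marco, Colec12) are trimers with a collagen-like stalk. Class B receptors (Cd36, Scarb1) span the membrane at both ends and move lipids. Cd163, which takes up haemoglobin bound to haptoglobin, and Cd5l, a secreted protein of macrophages, share the cysteine-rich domain that also caps Msr1 and Marco. Lyve1 binds hyaluronan and marks lymphatic endothelium and some tissue macrophages.

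The labelled cell types were borne out by their markers. Of 9 macrophage markers, 9 were above background on all TZM and microglia arrays and 5 on all DC arrays, and 9 were higher in TZM than in DC. Some markers, such as Mertk, Fcgr1 (CD64) and Cd8a, are genes of the sort gates, so their levels were partly set by the sorting. Of 9 microglia markers, 9 were lower in TZM than in microglia, and of 10 markers of CD8a+ DC, 9 were lower in TZM than in DC. Levels below are log2 values after robust multi-array averaging (RMA), and a level of 1 probe set is not set against that of another. The arrays carry no detection call, so the 95th percentile of 1194 olfactory and vomeronasal receptor genes on each array, 4.43 to 4.57, served as a rough background level. A call required limma's adjusted p (Benjamini-Hochberg, over all genes) to be under 0.05, with a log2 fold change of at least 1 in size. In sorted bulk RNA, fewer cells of a type and less RNA per cell cannot be told apart.

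Several libraries stood apart in ways that touch the results. Genes of the sex chromosomes, looked at after their values were seen, differed between the populations. The Y-linked gene Eif2s3y was at 6.67, 7.37 and 5.48 in TZM, at 2.81, 3.01 and 2.98 in microglia and at 3.07, 2.90 and 2.99 in DC. Xist, the RNA of the inactive X chromosome, was at 4.16, 4.36 and 8.26 in TZM, at 10.55, 10.44 and 10.35 in microglia and at 10.17, 9.95 and 9.98 in DC. Sex-linked RNA therefore went with the TZM group, TZM replicate 3 carried both signals, and sex and population cannot be told apart in any comparison with TZM. Among microglia, replicates 1 and 3 held Ttr, an abundant RNA of the choroid plexus, at 12.15 and 11.83, and replicate 2 held it at 5.48. Neutrophil and salivary gland genes varied among TZM arrays, with S100a8 at 5.89, 9.28 and 7.32 and Amy1 at 7.56, 8.59 and 5.97. The part of these differences in the values below was not tested.

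The promoters of the 3 genes that show the contrasting patterns, as far as RefSeq sequence was at hand for them, were read from GRCm38.p6. Marco and Cd5l stood highest in TZM and Cd36 in DC. Each run covers the 250 bases before the annotated start, 5′ to 3′ on the gene's strand, and capitals mark the motif matches given below them. The Marco window is chr1:120505025-120505274 on the minus strand, that of Cd5l chr3:87357631-87357880 on the plus strand and that of Cd36 chr5:17835897-17836146 on the minus strand, which is 1 start within a longer annotated gene.
Marco: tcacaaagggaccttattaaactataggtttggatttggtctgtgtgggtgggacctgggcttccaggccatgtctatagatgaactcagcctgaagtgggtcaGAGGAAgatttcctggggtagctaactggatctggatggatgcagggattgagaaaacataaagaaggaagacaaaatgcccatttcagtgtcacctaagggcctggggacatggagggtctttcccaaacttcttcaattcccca
Cd5l: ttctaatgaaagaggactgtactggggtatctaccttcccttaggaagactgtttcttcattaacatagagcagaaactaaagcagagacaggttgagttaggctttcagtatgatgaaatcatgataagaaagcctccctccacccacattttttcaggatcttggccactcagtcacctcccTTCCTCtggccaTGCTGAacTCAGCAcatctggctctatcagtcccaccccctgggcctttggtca
Cd36: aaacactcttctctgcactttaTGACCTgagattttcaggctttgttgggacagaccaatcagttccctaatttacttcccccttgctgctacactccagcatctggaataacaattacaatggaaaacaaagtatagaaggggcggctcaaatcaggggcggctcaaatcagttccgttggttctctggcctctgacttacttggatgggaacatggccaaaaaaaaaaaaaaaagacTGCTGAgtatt

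Both strands were searched for 4 motifs. GAGGAA is the core bound by PU.1, the transcription factor encoded by Spi1 that macrophages and DC share. It stood 146 bases before the Marco start and, as TTCCTC on the other strand, 66 bases before the Cd5l start, while the Cd36 window held none, and 23.3% of all 32851 promoter windows of this length hold it. The MAF-type element TGCTGA occurred 2 times before Cd5l, at 54 bases and, as TCAGCA, at 46 bases, and 1 time before Cd36, at 11 bases (16.1% of windows). AGGTCA, the element of nuclear receptors such as PPAR and LXR, was in the Cd36 window alone of these 3, as TGACCT at 228 bases (14% of windows). GAAA followed after 2 bases by another GAAA, as in interferon response elements, was in none of the 3 windows (2.98% of windows). No match overlapped another. These are matches of letters in a window, and binding was not measured.

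All 3 class A receptor genes of the set were higher in TZM than in DC and than in microglia. The class A genes Scara3 and Scara5, outside the set, were not called in TZM against DC (0.15 and 0.08) or against microglia (-0.03 and 0.18). Scara3 was under background on all arrays. Msr1, the macrophage receptor for modified lipoproteins, was at 7.36, 7.66 and 7.18 in TZM, at 5.60, 5.03 and 4.99 in microglia and at 3.96, 4.20 and 4.07 in DC. The 3 groups did not overlap, and all DC arrays were under the background level. Msr1 was higher in TZM than in microglia by 2.19 (SE 0.18, adjusted p = 5.2e-05), a 4.57-fold difference. Against DC it was higher by 3.32 (SE 0.18, adjusted p = 3.4e-06), or at least 7.52-fold when DC are set to their background level. Microglia stood above DC by 1.13 (SE 0.18, adjusted p = 0.0018), and at least 1.65-fold above background. This last call ended without microglia replicate 1, at 0.93.

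Colec12, a class A receptor with an added sugar-binding lectin domain, was at 7.93, 7.82 and 7.60 in TZM, at 4.89, 4.22 and 4.57 in microglia and at 4.08, 4.19 and 4.05 in DC. Every TZM array was far above the other 6, which lay near or under background. The difference was 3.22 against microglia (SE 0.16, adjusted p = 2.5e-06) and 3.68 against DC (SE 0.16, adjusted p = 9.0e-07), at least 9.82-fold over the background level of DC. Microglia against DC, at 0.45 (95% interval 0.09 to 0.82, adjusted p = 0.076), was not called. Colec12 is also a gene of stromal cells. Of 10 markers of reticular stroma, 3 were higher in TZM than in DC (Cxcl13, Ccl19 and Dcn) and 0 lower, where 8.74% of all genes were called. The same 3 were higher and 0 lower against microglia, where 7.65% of all genes were called. The mean level of the 10 was 5.35 to 5.52 in TZM, 4.73 to 4.78 in microglia and 4.64 to 4.76 in DC. Of the 10, 5 were above background on all TZM arrays and 4 on none, and 5 were above it on all microglia arrays and on all DC arrays. The part of stroma in the Colec12 level was not tested.

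Marco, a receptor for bacteria and particles that marks macrophages of lymph node and spleen sinuses, had low levels, at 5.18, 5.29 and 4.97 in TZM, at 3.86, 3.82 and 4.20 in microglia and at 4.20, 4.19 and 3.96 in DC. TZM arrays were above background, and all 6 others were below it without separating from each other. Marco was higher in TZM by 1.19 against microglia (SE 0.13, adjusted p = 0.00026) and by 1.03 against DC (SE 0.13, adjusted p = 0.00051), at least 1.55-fold and 1.58-fold over their background levels. The call against DC lay at the fold minimum and ended, at 0.95 and 0.96, without DC replicate 3 or TZM replicate 2. It also ended at 0.98 with median centring and at 0.99 with quantile normalization. Microglia and DC differed by -0.16 (95% interval -0.45 to 0.14).

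The class B receptor genes of the set had other orders, with Cd36 highest in DC and Scarb1 lowest in microglia. Scarb2, a class B gene outside the set, had the order of Msr1, at a mean of 10.53 in TZM, 9.92 in microglia and 8.82 in DC. It was called higher in TZM than in DC (1.71, adjusted p = 3.1e-06) and not called against microglia (0.60). Cd36, which imports fatty acids and binds oxidised lipid and dying cells, was at 6.37, 7.05 and 6.30 in TZM, at 5.66, 4.50 and 5.54 in microglia and at 10.47, 10.54 and 10.31 in DC. DC stood above every macrophage array, and the ranges of TZM and microglia were next to each other without overlap. TZM were 14.6-fold below DC (log2 fold change -3.87, SE 0.31, adjusted p = 3.7e-05) and microglia 36.9-fold below DC (-5.20, SE 0.31, adjusted p = 4.4e-06). TZM were higher than microglia by 1.34 (SE 0.31, adjusted p = 0.017). That call rested on microglia replicate 2, the array without high Ttr, since without it the difference was 0.97, and with only TZM and microglia in the fit its adjusted p was 0.062. Cd36 is also a platelet gene. The platelet marker Gp9 was at 5.65, 5.54 and 5.17 in TZM, at 7.58, 7.15 and 7.70 in microglia and at 6.31, 6.77 and 6.37 in DC. It alone of the platelet markers was called lower in TZM than in DC, at -1.03 (adjusted p = 0.0049). Pf4 was called higher there (5.13), and Gp5, Itga2b, Ppbp and Treml1 were not called. The mean of 5 platelet markers was 4.84 to 4.96 in TZM, 5.28 to 5.37 in microglia and 5.02 to 5.10 in DC. It was 5.57 to 5.72, 5.58 to 5.98 and 4.85 to 5.003 in that order with Pf4 added, which is also a border macrophage marker. The part of platelets in the Cd36 levels was not tested.

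Scarb1, the receptor that takes cholesteryl ester from high density lipoprotein, was at 8.35, 8.47 and 8.07 in TZM, at 6.35, 6.24 and 6.09 in microglia and at 8.12, 8.20 and 8.12 in DC. TZM and DC arrays overlapped and differed by 0.15 (95% interval -0.10 to 0.40, adjusted p = 0.44), and every microglia array was lower than all of them. Microglia were lower than DC by 1.92 on the log2 scale (log2 fold change -1.92, SE 0.11, adjusted p = 3.4e-06), and TZM were higher than microglia by 2.07 (SE 0.11, adjusted p = 3.8e-06), 4.20-fold. Its SD within a group was 0.05 to 0.21.

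The 2 genes of the cysteine-rich family without a class A stalk went separate ways. Cd5l, which is secreted by tissue macrophages and binds lipids and microbes, was at 5.20, 5.17 and 4.72 in TZM, at 3.82, 4.004 and 3.77 in microglia and at 3.86, 3.95 and 3.52 in DC. As with Marco, only TZM arrays were above background, and TZM replicate 3 was the lowest of them. Cd5l was higher by 1.17 against microglia (SE 0.16, adjusted p = 0.00088) and by 1.25 against DC (SE 0.16, adjusted p = 0.00052), at least 1.43-fold and 1.46-fold over background. Microglia and DC differed by 0.09 (95% interval -0.27 to 0.44).

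Marco and Cd5l are also genes of sinus macrophages, which the CD169-negative gate was set to leave out. Siglec1, the gene of CD169, was at 8.15, 6.80 and 7.21 in TZM, at 5.56 on each of the 3 arrays in microglia and at 4.76, 4.78 and 5.14 in DC. Cd209b, a lectin of marginal zone and sinus macrophages, was at 7.45, 5.33 and 5.78 in TZM and below background on every other array. Of 6 sinus macrophage markers outside the set, 4 were above background on all TZM arrays and Vsig4 on none, and their mean level was 5.99 to 6.64 in TZM, 6.15 to 6.23 in microglia and 4.18 to 4.24 in DC. Without Fcgr1 and Adgre1, which macrophages at large express, it was 5.07 to 5.85 in TZM, 4.25 to 4.35 in microglia and 4.05 to 4.15 in DC. Siglec1 and Cd209b were highest in TZM replicate 1 and lowest in replicate 2. Cd5l (5.20 and 5.17) and Marco (5.18 and 5.29) were each at nearly the same level in these arrays. Both genes lie near background, so the order of the TZM arrays tells nothing of their source. The part of sinus macrophages in these levels was not tested.

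Cd163 was above background on 2 of the 9 arrays, the fewest of the 8 genes. It was at 4.06, 4.04 and 3.86 in TZM, at 5.16, 4.10 and 4.84 in microglia and at 3.77, 3.76 and 3.86 in DC. No TZM or DC array was above background, and of the microglia arrays only replicates 1 and 3 were. It was not called in any comparison: TZM against microglia gave -0.71 (95% interval -1.24 to -0.19, adjusted p = 0.065) and microglia against DC 0.90 (95% interval 0.38 to 1.43, adjusted p = 0.020, under the fold minimum). Without microglia replicate 2 both became calls, at -1.01 (adjusted p = 0.00076) and 1.20 (adjusted p = 0.00020), as did microglia against DC with array weights, at 1.01. TZM and DC differed by 0.19 (95% interval -0.34 to 0.71).

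Lyve1, like Cd163, had its highest levels in microglia, and of these 2 genes it alone was called. It was at 5.18, 5.24 and 4.98 in TZM, at 6.24, 5.85 and 6.41 in microglia and at 4.88, 4.86 and 5.05 in DC. Every microglia array was above every other array, while TZM and DC overlapped. TZM were lower than microglia, at -1.03 (SE 0.14, adjusted p = 0.0011), a call at the fold minimum that ended without TZM replicate 3 (-0.96), microglia replicate 1 (-0.999) or microglia replicate 3 (-0.91), each with adjusted p under 0.01. Microglia were higher than DC by 1.23 (SE 0.14, adjusted p = 0.00025). TZM and DC differed by 0.20 (95% interval -0.13 to 0.53). Of 8 lymphatic endothelial markers beside Lyve1, Flt4, Mmrn1, Reln and Sema3d were under background on all arrays, and Prox1 was at 3.84, 3.63 and 3.77 in TZM, at 5.71, 5.36 and 5.36 in microglia and at 3.68, 3.79 and 3.80 in DC. Between TZM and microglia, Prox1 was called lower in TZM (-1.73, adjusted p = 9.0e-06) and Madcam1 higher (1.15, adjusted p = 0.0014). Itga2b, above background on all arrays, and Pdpn were not called there. The part of lymphatic cells in the Lyve1 levels was not tested.

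**Figure D1:**
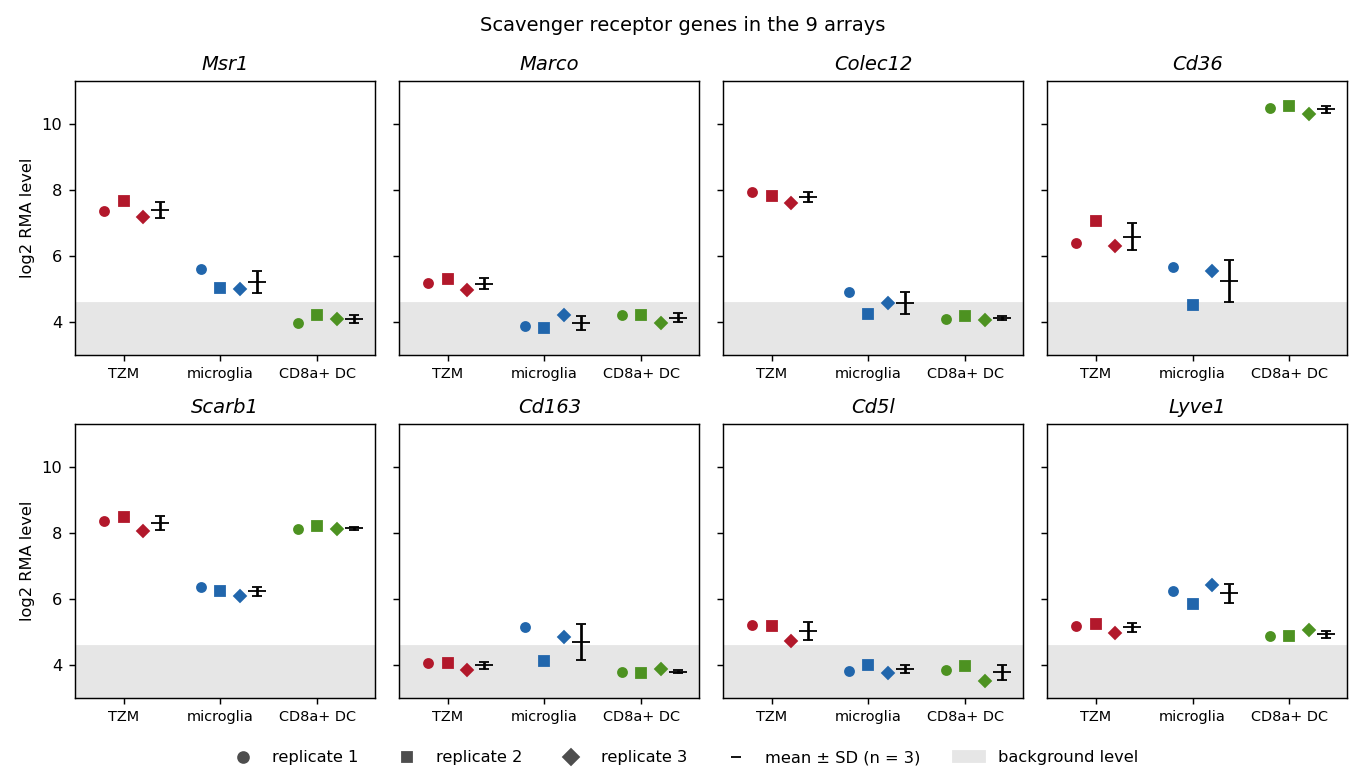
Log2 RMA level (vertical axis) of the 8 genes in each array, by population, with replicates 1 to 3 as separate symbols, the mean ± SD beside them and the background level shaded. Msr1 and Colec12 stand highest in TZM, Cd36 in DC at 10.31 to 10.54, and Lyve1 in microglia at 5.85 to 6.41.

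**Figure D2:**
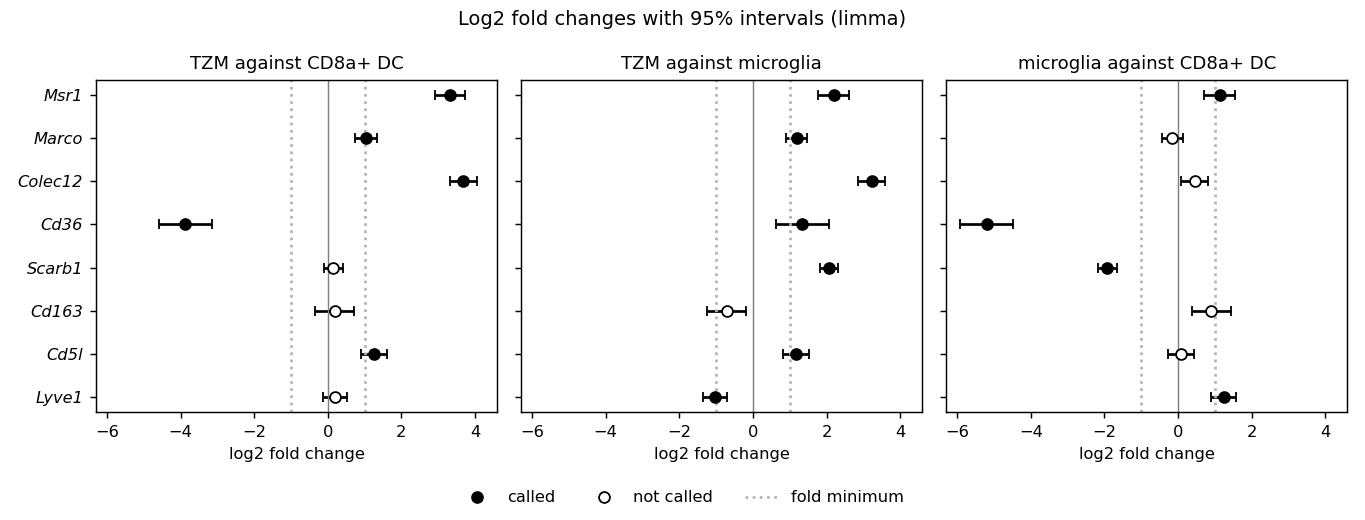
Log2 fold change (horizontal axis) of each gene in the 3 comparisons, with its 95% interval, filled where called and with the fold minimum dotted. Colec12 is at 3.68 and Cd36 at -3.87 in TZM against DC, and the intervals of Marco, Cd5l and Lyve1 reach across the fold minimum.

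Counted over the set, TZM against DC gave 4 genes higher, 1 lower and 3 not called of 8, where 8.74% of all genes were called, 4.71% higher and 4.03% lower. TZM against microglia gave 6 higher and 1 lower of 8 (7.65% of all genes called, 4.25% higher and 3.40% lower), and microglia against DC 2 higher and 2 lower of 8 (11.2% of all genes called, 5.15% higher and 6.01% lower). The arrays of the groups did not overlap for 5 of 8 genes in TZM against DC (32.3% of all genes), for 8 in TZM against microglia (30.5%) and for 6 in microglia against DC (37.8%). The median log2 fold change of the 8 was 0.62, 1.26 and 0.27 in that order, against 0.02, 0.01 and 0.01 over all genes. The comparisons share arrays, so their counts are not independent of each other. Only genes with signal in some population can be called, and of the 8, 7 were above background on at least 3 arrays.

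The members varied within the groups as well. In TZM, replicate 3 was the lowest array for 8 of 8 genes, by 0.08 to 0.45, whereas it was the lowest for 26.8% of all genes and for 37.4% of genes with a mean level of at least 6. This is also the array in which Xist and Y-linked RNA were found together. Without it, TZM against DC kept 5 calls, and TZM against microglia had 6 in place of 7, the call of Lyve1 being lost.

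In microglia, replicate 2 was the lowest array for 5 of 8 members, against 29.9% of all genes and 42.4% of genes with a mean level of at least 6. The largest gaps were those of Cd36, at -1.10 against the mean of replicates 1 and 3, Cd163 at -0.90, Colec12 at -0.51 and Lyve1 at -0.48. Markers of border-associated macrophages, the Cd163- and Lyve1-bearing macrophages of meninges, vessels and choroid plexus, went the same way. Of 11 such markers outside the set, 9 were lowest in replicate 2, among them Ms4a7 (6.80, 4.37 and 6.63), Pf4 (9.11, 7.05 and 8.72), F13a1 (6.51, 4.81 and 6.54) and the mannose receptor gene Mrc1 (8.96, 7.21 and 8.54). Their mean level was 6.32, 5.25 and 6.16 on the 3 microglia arrays. It was higher in TZM, at 7.06 to 7.28, and was 4.95 to 5.08 in DC, so these markers were not particular to the brain samples. Ms4a7, for one, had a mean of 10.51 in TZM. Of 8 choroid plexus markers, 7 were lowest in microglia replicate 2 as well. Of 9 microglia markers, 3 were lowest in replicate 2. With microglia replicates 1 and 3 left out, Lyve1 was no longer called in either comparison, at -0.72 in TZM against microglia and 0.92 in microglia against DC. The 1 array left is then assumed to vary like the other groups. The part of border-associated macrophages in the microglia levels of Cd163, Lyve1 and Cd36 was not tested.

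**Figure D3:**
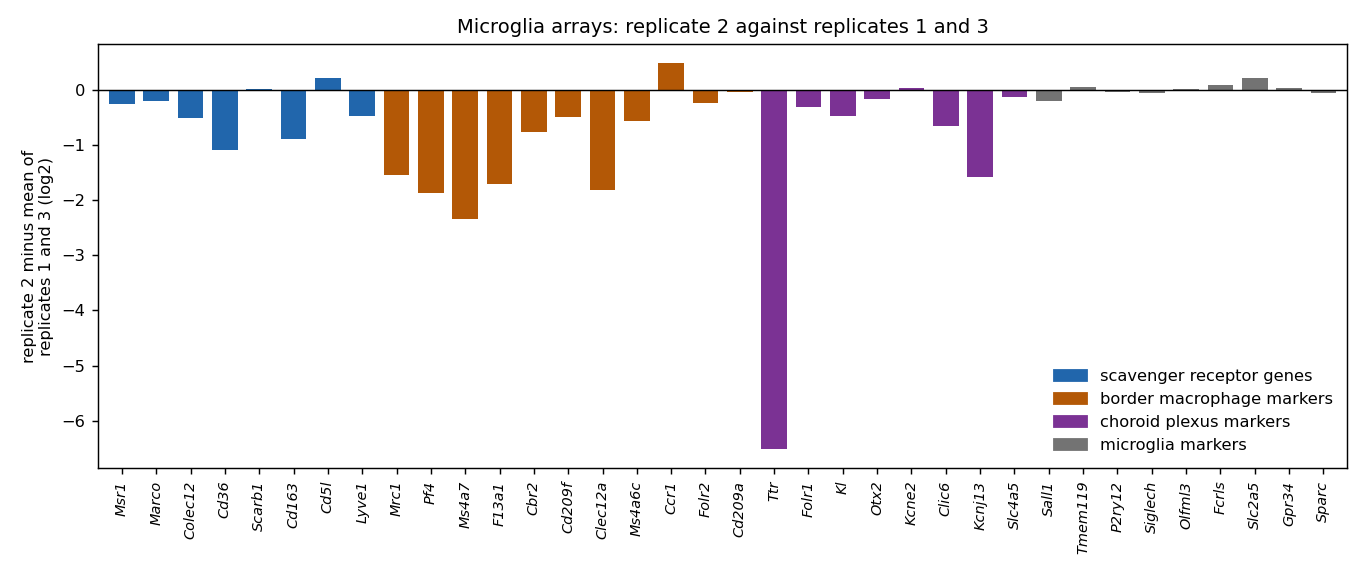
Level in microglia replicate 2 minus the mean of replicates 1 and 3 (vertical axis, log2) for the 8 genes and for markers of border macrophages, choroid plexus and microglia. Cd36 (-1.10) and Cd163 (-0.90) lie low together with Ms4a7 (-2.34), Pf4 (-1.86) and Ttr (-6.51), and the microglia markers lie between -0.20 and 0.21.

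Other genes of scavenger receptor classes and related endocytic receptors were counted from a list of 30, of which 29 were tested. TZM against DC gave 10 higher and 0 lower, where 8.74% of all genes were called. TZM against microglia gave 7 higher and 2 lower (7.65% of all genes), and microglia against DC 5 higher and 2 lower (11.2%). The median log2 fold changes of the 29 were 0.15, 0.02 and 0.05, close to those of all genes. Highest over DC were Lgals3bp, a secreted protein with a cysteine-rich domain (3.83, SE 0.32), Mrc1 (3.76, SE 0.39, and at least 10.7-fold over the background level of DC), the beta-glucan receptor Clec7a (2.76, SE 0.26) and the apolipoprotein E receptor Lrp8 (2.76, SE 0.17). Clec7a, at a mean of 9.79 in TZM, 6.20 in microglia and 7.03 in DC, and Lrp8, at 8.34, 5.17 and 5.57, were higher in TZM than in microglia too, by 3.59 and 3.17.

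Microglia carried other receptors of the family. Lrp1, a large endocytic receptor for apolipoproteins and dying cells, was at a mean of 6.60 in TZM, 9.53 in microglia and 5.44 in DC, and was lower in TZM than in microglia, at -2.92 (SE 0.10, adjusted p = 2.1e-07). Stab1, a class H receptor for modified lipoproteins and matrix fragments, was at 6.34, 8.51 and 4.78 in the same order, at -2.17 between TZM and microglia (SE 0.11, adjusted p = 2.4e-06). Mrc1 differed by -0.33 between TZM and microglia (adjusted p = 0.66), with the spread among microglia arrays given above.

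**Figure D4:**
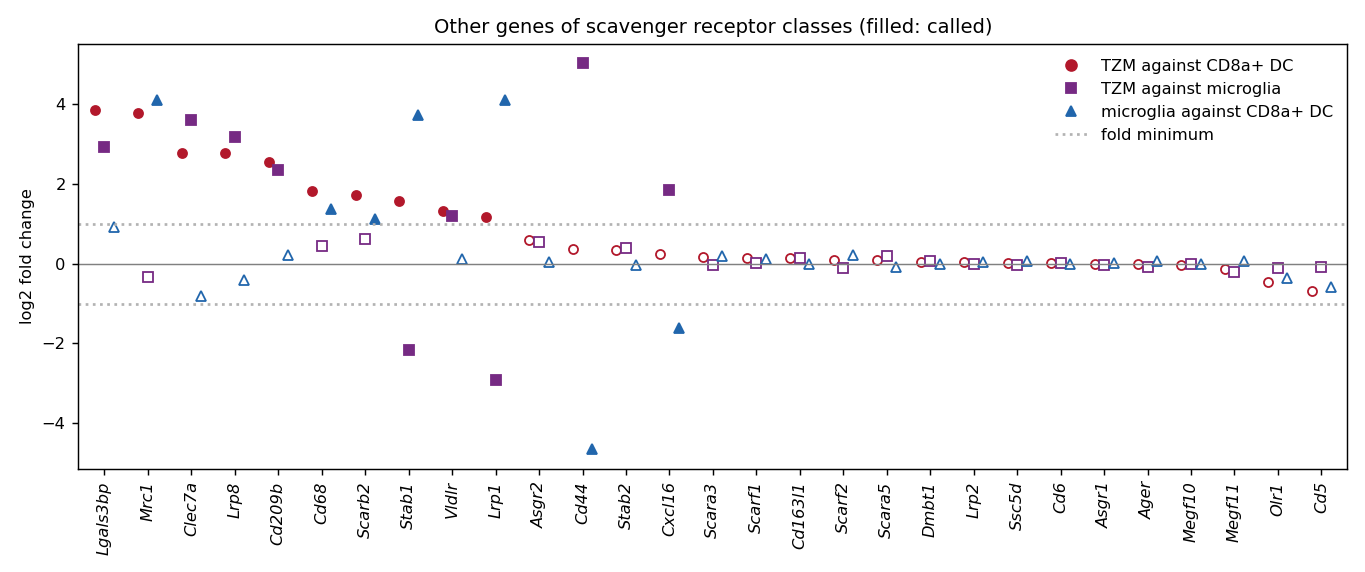
Log2 fold change (vertical axis) of 29 other scavenger and endocytic receptor genes in the 3 comparisons, filled where called, ordered by TZM against DC. Lgals3bp (3.83) leads that comparison, Cd44 (5.01) stands highest in TZM against microglia, and Lrp1 and Stab1 point down there (-2.92 and -2.17) while they point up in microglia against DC.

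Of 16 tested partners, signalling genes and lipid suppliers, 5 were higher and 2 lower in TZM than in DC, where 8.74% of all genes were called. The receptor gene Tlr4, which pairs with Cd36 in the response to oxidised lipid, was at a mean of 8.74 in TZM, 9.16 in microglia and 4.98 in DC, higher in TZM than in DC by 3.76 (SE 0.17, adjusted p = 1.1e-06). Lpl, the lipase that frees fatty acids, was higher in TZM than in DC, where it was under background, at least 8.44-fold, and than in microglia by 1.64. Fcer1g, a signalling adaptor, was higher in TZM than in DC by 3.03. Along with Cd36, Vav3, a guanine nucleotide exchange factor, had its highest level in DC, at least 5.31-fold over TZM and 5.38-fold over microglia, which were under background on all arrays, and the kinase gene Fyn was lower in microglia than in DC, at -1.89. TZM against microglia gave 1 higher and 1 lower of 16, Lpl and, at -1.70, the tetraspanin gene Cd9 (SE 0.27), and microglia against DC 4 higher and 2 lower. In that order, 7.65% and 11.2% of all genes were called.

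Among 16 tested hyaluronan genes, the company of Lyve1, 1 was higher and 1 lower in TZM against DC, 1 and 1 in TZM against microglia, and 2 and 2 in microglia against DC, beside 8.74%, 7.65% and 11.2% of all genes called in that order. The main hyaluronan receptor gene, Cd44, ran opposite to Lyve1, at a mean of 9.65 in TZM, 4.64 in microglia and 9.29 in DC. It was higher in TZM than in microglia by 5.01 (SE 0.12, adjusted p = 5.3e-08) and lower in microglia than in DC, at -4.65. Stab1 and Layn, a further hyaluronan receptor gene (1.65 in microglia against DC), stood highest in microglia, as Lyve1 did. Hmmr, a receptor of dividing cells, was called lower in TZM and in microglia than in DC, with a mean of 3.57 in TZM and 3.50 in microglia, under background on all their arrays, and of 4.81 in DC.

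Of 18 tested transcriptional regulator genes that are known to act on scavenger receptor genes or macrophage identity, 10 were higher and 0 lower in TZM than in DC. In TZM against microglia 7 were higher and 1 lower, and in microglia against DC 4 were higher and 3 lower. The shares of all genes called were 8.74%, 7.65% and 11.2% in that order. Nr1h3, which encodes the oxysterol receptor LXRα and is known to drive Cd5l in mouse macrophages, was at a mean of 9.09 in TZM, 4.27 in microglia and 4.32 in DC, at least 23.9-fold higher in TZM than in microglia, which were under background. Rxrg, a partner of such receptors, was under background on all DC and microglia arrays and at least 5.31-fold higher in TZM than in DC and 5.21-fold higher than in microglia. Pparg, a fatty acid receptor known to drive Cd36, was at 7.16 in TZM, 4.79 in microglia and 5.71 in DC, a different order from that of Cd36. Tfec, Spic and Bhlhe40 were also higher in TZM than in both others. Tfec was at least 27.9-fold higher than in DC, where it was under background, and higher than in microglia by 4.27. Spic was higher than in DC by 2.98 and at least 47.8-fold higher than in microglia, where it was under background. Bhlhe40 was higher by 1.37 against DC and by 5.28 against microglia, of which 1 array was above background. Maf (2.12) and Klf4 (2.33) were higher in microglia than in DC.

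Among 14 tested ligands and carriers that these receptors handle, 5 were higher and 1 lower in TZM than in DC (8.74% of all genes called). In TZM against microglia 2 were higher and 0 lower (7.65%), and in microglia against DC 4 were higher and 1 lower (11.2%). Apoe, the lipid carrier, was at a mean of 13.03 in TZM, 11.49 in microglia and 9.53 in DC, higher in TZM than in microglia by 1.54 (SE 0.22, adjusted p = 0.0014). The genes of complement C1q, which tags dying cells, were higher in TZM than in DC by 7.33 (C1qa), 7.13 (C1qc) and 6.04 (C1qb), and in microglia than in DC by 7.48, 7.16 and 6.51. Anxa1, a phospholipid-binding protein, was at a mean of 4.68 in TZM, 3.94 in microglia and 8.11 in DC, and was at least 12.1-fold lower in microglia, under background on all arrays, than in DC.

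Genes with the most similar profile were found for the 7 members whose group means spanned at least 1 log2 unit, by the root mean square difference between centred profiles over the 9 arrays. Nearest to Msr1 were Tmem65 (0.27), Gstm1 (0.30) and Lpl (0.30), and nearest to Colec12 Mgst1 (0.22), Vat1 (0.24) and Pdgfc (0.25). Marco lay nearest to Rbpms2 (0.11), Gng12 and Lysmd2 (0.13 each). Nearest to Cd36 were Il12b (0.33), Nr4a2 (0.34) and Nedd4 (0.40), which like it were highest in DC. Scarb1 was followed by Plcb4 (0.15), Pqlc3 and Tank (0.17 each), and Lyve1 by Zfp456 and Btbd19 (0.10 each) and Mid1 (0.13). Nearest to Cd5l were Tox2 (0.15), Twf1 (0.16) and Kdm5d (0.17), the last of which is Y-linked and was at a mean of 4.82 in TZM, 3.58 in microglia and 3.69 in DC. Such likeness describes 9 arrays in 3 groups, and a small span brings a small difference.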

How the data were processed

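The deposited table holds the authors' log2 values, which were computed with Affymetrix Expression Console 1.3.1 and RMA per the submitters' processing notes. The table held 35556 probe sets. The platform annotation gave 1 gene symbol for 21789 of them, several for 1621 and none for 12146, and genes were named from the first. The brightest probe set per gene left 19938 genes. For the 3 comparisons, limma 3.58.1 (R 4.3.3) was fitted to all 9 arrays at once with a mean per population, followed by eBayes. The number of arrays limits the precision, and p-values measure the spread between these samples. A bound on a fold ("at least") sets each array of the dim group to its background level. Named from the other lists were the most changed called genes, at most 4 for each list in each comparison (Pparg, Bhlhe40 and Rxrg are given throughout), and from the marker lists those that bear on sample purity. Scara3, Scara5 and Scarb2 were named besides, as further genes of classes A and B. The members and lists were chosen with earlier results of these data known. The script was tested on simulated data. Of the 8 members, 4 had an entry in the RefSeq promoter table, and 3 are shown. Figures were drawn with matplotlib.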

Additional observations from a re-analysis of the deposited data

How the results depend on the processing

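Counts of called members stayed within 1.5 times under most alternatives: no minimum fold change, a background level filter, median centring, quantile normalization, mean of probe sets, every probe set, only the groups compared, trended and robust eBayes, array weights and the replicate block, which gave 5, 7 and 4 for TZM against DC, TZM against microglia and microglia against DC, as without it. Each of the 8 members has 1 probe set, so the mean of probe sets and every probe set left their levels and fold changes as they were. Those refits are among the ones counted below. Same-numbered arrays did not deviate together (correlations -0.15 to 0.13 over 9 pairs), so their numbers were not taken as pairs. Requiring a level of 6 in 3 arrays left 4 members to test, of which 3 (TZM against DC) and 4 (TZM against microglia) were called. Msr1 and Colec12 passed this filter only through the TZM arrays, where they were high, so these counts add no separate evidence. With microglia replicates 1 and 3 left out, chosen after seeing the data, microglia against DC had 2 called members, as Msr1 (0.95) and Lyve1 fell under the fold minimum. With any single array left out the counts were 4 to 5, 6 to 7 and 3 to 5. Over all genes, 1743, 1526 and 2224 were called in the same order, 4025, 3873 and 5006 without a minimum fold change, and 2333 and 3440 for the comparisons TZM against microglia and microglia against DC with every probe set tested. Leaving out single arrays gave 1655 to 1814, 1472 to 1558 and 2132 to 2234. Of 489 refits of single members, 471 kept direction and call, 13 lost a call, 4 gained one, and 1 turned sign: Cd5l in microglia against DC, not called in either, at -0.0412 without DC replicate 3 (-0.0412 to 0.17 with single arrays left out). Levels near background limit Marco, Cd5l and Cd163.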

Other observations

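Some genes outside the lists of receptors stood apart in TZM and were chosen after their values were seen. Cdh5, a cadherin gene known from endothelium, was at 7.54, 7.66 and 7.75 in TZM and at 5.15 to 5.49 on the other 6 arrays. Of the other endothelial genes, Kdr and Tek were under background on all 9 arrays, and Pecam1 and Tie1 above it on all 9. Of 10 blood endothelial markers, Cdh5 among them, 3 were above background on all TZM arrays and 5 on none. The part of endothelial cells in the Cdh5 level was not tested. Among T cell genes, Cd28 was at 9.19, 9.50 and 8.54 in TZM, Cd4 at 11.06, 10.59 and 10.83, Cd3e at 6.08, 5.97 and 6.38, Cd3d at 4.81, 4.78 and 5.10, and Cd3g at 3.94, 4.37 and 5.02. Cd3d was higher in TZM than in microglia (1.20, limma adjusted p = 0.00018) and not called against DC (0.79). It was above background on all 3 TZM arrays and on no other array. Cd3g was likewise called against microglia (1.15) and not against DC (0.87). Cd3e was called against neither microglia (0.91) nor DC (0.53), and was above background on all arrays of each population.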
